A study of Mus musculus with 20 samples.

Results

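The binding sites of C/EBPβ in induced wild-type 3T3-L1 cells were compared with and without the PARP inhibitor BYK204165 (BYK). The peaks of the 2 conditions were merged where they overlapped by at least 1 bp, which gave 19632 sites, against 23854 when the peaks of all 5 conditions of the series were merged. Of the 19632 sites, 11015 had a peak in both lists (shared sites), 1312 had a peak without the inhibitor and none with it (WT +Dox only sites), and 7305 had a peak with the inhibitor and none without it (BYK-only sites, labelled WT +Dox +BYK only in the plots).

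The series holds chromatin immunoprecipitation and sequencing (ChIP-seq) of C/EBPβ, with matching input DNA, from 3T3-L1, a line of mouse preadipocytes that forms fat cells in culture. In every condition the cells held a transgene for the LAP form of C/EBPβ with an HA tag, switched on by doxycycline, and its coding sequence was wild type (WT) or had the poly(ADP-ribosyl)ation sites mutated (Mut). WT +Dox cells were held at confluence for 2 days and then given 1 µg/ml doxycycline for 8 h, and WT +Dox +BYK cells received BYK204165 1 h before the same doxycycline treatment. The other conditions were WT −Dox and Mut −Dox, which received vehicle, and Mut +Dox, which received doxycycline and no inhibitor. The dose of BYK204165 is not given in the sources used here. The antibody recognises C/EBPβ itself, so the induced protein and the cells' own protein cannot be told apart in these peaks. The labels name 2 ChIP libraries per condition, but each condition has 1 peak list, so differences between conditions could not be set against replicates, and p-values are left out. The depth behind the lists is unknown. All intervals are Wilson 95% intervals of shares unless named otherwise, and they cover counting error only, since neighbouring sites are not independent.

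C/EBPβ is a basic leucine zipper (bZIP) transcription factor that binds DNA as a dimer and appears early when preadipocytes start to become fat cells, where it acts on the genes of later regulators such as C/EBPα and PPARγ. PARP-1 is a nuclear enzyme that uses NAD to attach chains of ADP-ribose to proteins (PARylation), transcription factors among them. Its inhibitors block the transfer of these units, and the series was set up to study PARylation of C/EBPβ by PARP-1 in adipogenesis.

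The classes differed in where their sites lay and in the letters beneath the sites at gene starts, so promoter stretches of each class are shown before the values. Each is 100 bases that end at or before the gene start, read 5′ to 3′ along the gene's strand from RefSeq promoter sequences of GRCm38.p6, the build of the files (mm10). The genes were chosen after their values were seen. The first stretches lay inside WT +Dox only sites, and the capitals mark the cAMP response element (CRE, TGACGTCA), the letters bound by CREB and ATF dimers.
Cope promoter, chr8:70302517-70302616, plus strand: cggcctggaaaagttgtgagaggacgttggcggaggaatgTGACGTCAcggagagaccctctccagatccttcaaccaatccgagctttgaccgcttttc
Larp7 promoter, chr3:127553417-127553516, minus strand: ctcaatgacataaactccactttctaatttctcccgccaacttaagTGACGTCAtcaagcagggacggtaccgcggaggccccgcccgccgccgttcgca
Med21 promoter, chr6:146642402-146642501, plus strand: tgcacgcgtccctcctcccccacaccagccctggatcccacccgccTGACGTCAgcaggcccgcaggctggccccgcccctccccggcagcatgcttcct
Trmt61a promoter, chr12:111678005-111678104, plus strand: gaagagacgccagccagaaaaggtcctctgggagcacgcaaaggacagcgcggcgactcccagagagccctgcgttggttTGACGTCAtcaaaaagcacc
The next stretches lay inside shared sites. Capitals mark the C/EBP palindrome (TTGCGCAA) in Ptgs2, which encodes the prostaglandin-forming enzyme COX-2, the C/EBP consensus (TTGCNNAA on either strand) in Il6, which encodes interleukin 6, and Pparg, which encodes PPARγ, and a hybrid of C/EBP and CRE letters (TGACGCAA) in Fosb, an AP-1 gene.
Ptgs2 promoter, chr1:150099916-150100015, plus strand: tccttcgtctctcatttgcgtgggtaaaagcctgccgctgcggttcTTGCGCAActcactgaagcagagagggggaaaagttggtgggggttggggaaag
Il6 promoter, chr5:30012940-30013039, plus strand: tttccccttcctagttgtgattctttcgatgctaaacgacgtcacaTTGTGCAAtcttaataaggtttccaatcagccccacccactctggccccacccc
Pparg promoter, chr6:115421966-115422065, plus strand: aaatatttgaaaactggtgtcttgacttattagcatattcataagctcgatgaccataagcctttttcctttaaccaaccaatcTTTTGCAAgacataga
Fosb promoter, chr7:19310052-19310151, minus strand: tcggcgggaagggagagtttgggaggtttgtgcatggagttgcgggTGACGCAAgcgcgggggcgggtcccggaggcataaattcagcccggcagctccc
The last stretches lay inside BYK-only sites, with the C/EBP consensus in capitals. Il1r1 encodes the interleukin 1 receptor, Mitf a bHLH-leucine zipper transcription factor and Ctsk the protease cathepsin K.
Il1r1 promoter, chr1:40224901-40225000, plus strand: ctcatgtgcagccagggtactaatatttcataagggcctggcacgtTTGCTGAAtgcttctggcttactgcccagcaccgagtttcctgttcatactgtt
Mitf promoter, chr6:97806883-97806982, plus strand: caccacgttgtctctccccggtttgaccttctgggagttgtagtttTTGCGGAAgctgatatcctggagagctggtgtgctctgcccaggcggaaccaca
Ctsk promoter, chr3:95499088-95499187, plus strand: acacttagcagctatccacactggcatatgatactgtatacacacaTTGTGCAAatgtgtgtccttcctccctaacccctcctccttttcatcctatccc

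Most sites seen without the inhibitor were also seen with it. Shared sites made up 56.1% of the merged sites (55.4 to 56.8%), BYK-only sites 37.2% (36.5 to 37.9%) and WT +Dox only sites 6.68% (6.34 to 7.04%). Of the sites in the WT +Dox list, 89.4% were also in the WT +Dox +BYK list (88.8 to 89.9%). Of the sites in the WT +Dox +BYK list, 60.1% were also in the WT +Dox list (59.4 to 60.8%). BYK-only sites outnumbered WT +Dox only sites 5.57 to 1, with an exact binomial interval of 5.25 to 5.91. The WT +Dox +BYK list held 18371 peaks and the WT +Dox list 12384. When the longer list was cut to its 12384 highest-scoring peaks the ratio was 1.01, which equal lengths bring about by construction. More bound sites, more reads and a stronger enrichment cannot be told apart from these lists.

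The sites of 1 list came mainly from the lower part of that list's scores. Scores were assigned to peaks by the authors, serve here only to rank peaks inside a list, and start at 50 in both lists. The median WT +Dox only site stood at the 17.5 percentile of the WT +Dox list and the median BYK-only site at the 25.3 percentile of the WT +Dox +BYK list. Among peaks in the highest score decile, 99.9% of either list were overlapped in the other list. In the lowest decile, 66.7% of WT +Dox peaks had a partner with the inhibitor (64.1 to 69.3%), and 18.4% of WT +Dox +BYK peaks had a partner without it (16.7 to 20.2%). Peaks without a partner reached into the middle of the WT +Dox +BYK list, where 68.0% of decile 6 and 93.6% of decile 8 were shared.

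**Figure D1:**
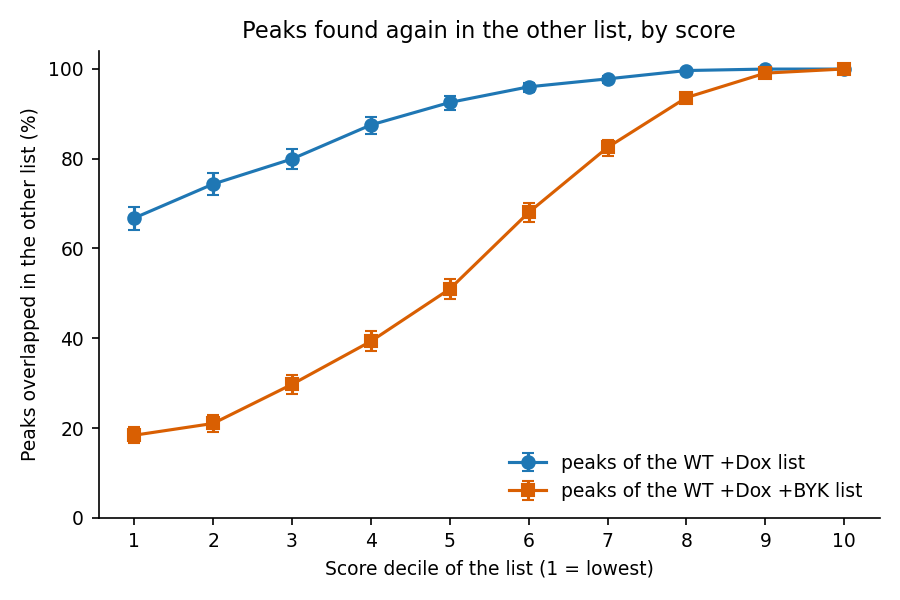
Share of peaks overlapped by at least 1 bp in the other list (vertical axis, %) for each decile of a list ranked by peak score (horizontal axis, 1 is the lowest); points are shares and bars Wilson 95% intervals. Both curves end at 99.9%, and the lowest deciles stand at 66.7% for the WT +Dox list and 18.4% for the WT +Dox +BYK list.

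The class borders were clear in most cases. The smallest overlap of a shared site was 21 bp, and 2 of the 11015 shared sites overlapped by under 100 bp, while the median overlap was 792 bp. The nearest BYK peak lay within 1 kb of 83 WT +Dox only sites (6.33%), and the nearest WT +Dox peak within 1 kb of 314 BYK-only sites (4.30%). The smallest gaps were 36 bp and 6 bp. Shared sites had a median width of 919 bp, against 772.5 bp for WT +Dox only sites and 777 bp for BYK-only sites. A shared site spans the joined peaks of both lists, so part of this difference is by construction. Among 10918 shared sites made of 1 peak from each list, 6603 peaks were wider with the inhibitor, 4275 narrower and 40 of equal width, with median widths of 870 and 843 bp.

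Many of the highest-scoring sites led both lists. The leading shared sites lay 7.79 kb from Wnt16 (chr6:22279594-22281175, scores 1335.04 and 1620.01 without and with BYK), 12.5 kb from Auh and inside Fbln1, which encodes the matrix protein fibulin 1. Others among the 15 leading shared sites lay 33 bp from the start of Abhd11, 84 bp from the start of Rpia, and inside Nsmce2, Pde1a and Ift122. All 15 also had a peak in each of the other 3 lists. Of the 100 highest-scoring shared sites in one list, 62 were among the 100 highest in the other, and of the 1000 highest, 742 were.

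The highest WT +Dox only score was 314.01, at a site of 5055 bp on chr4:3079742-3084796 whose nearest gene, the vomeronasal receptor Vmn1r2, lay 89.8 kb away. That site also had a peak in all 3 lists not used to class the sites. The sites that followed lay at gene starts in several cases: 627 bp from the start of Izumo4 (score 219.71), 7 bp from that of Cdc42se1 (187.51), 110 bp from that of Man2c1 (186.68), 492 bp from that of Tank (185.02) and 16 bp from that of Sfxn3 (162.91). Cdc42se1 encodes an effector of the small GTPase CDC42, and Tank an adaptor of NF-κB signalling. Others of the 15 lay inside Cobl, Dlgap2, St3gal1 and Tspan5 or near Acot11, Mrtfb, Nsun3, Slc7a12 and Minpp1.

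Among BYK-only sites the highest score was 424.08, on chr6:17201646-17203025, 78.8 kb from Cav2, a caveolin gene. The next lay 45.8 kb from Lamb1, a laminin gene (338.80), 116 kb from Efcab1 (305.34), 542 kb from Nmbr (291.39) and 73.8 kb from Boc, a hedgehog co-receptor gene (277.93). Of the 15 leading BYK-only sites, those at Sephs2 (207 bp from the start, score 258.94) and Ftl1 (125 bp, 239.03), genes of selenium and iron handling, lay at listed gene starts. Starts were listed for 17492 of 21887 genes, so sites at other starts can be missed. The sites 94 bp from the Traf3ip2 span and inside S1pr1 had their nearest listed starts 243041 and 173765 bp away. The others were near Ppt2, Zeb2, Gng11 and Spg20 or inside or beside Rad51b, S1pr1, Usp47 and Traf3ip2. These 15 sites all had a peak in Mut +Dox.

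The other 3 lists were not used to class the sites and show where else each class had a peak. They differ in length, with 17816 peaks in Mut +Dox, 10959 in WT −Dox and 6898 in Mut −Dox. Shares are therefore read between classes within a list and not between lists. In Mut +Dox, the induced PARylation-site mutant, peaks lay at 92.2% of shared sites (91.7 to 92.7%), 50.2% of WT +Dox only sites (47.5 to 52.9%) and 50.6% of BYK-only sites (49.4 to 51.7%). The shares of WT +Dox only and BYK-only sites in the mutant differed by less than counting error. Peaks of uninduced WT cells lay at 70.5% of shared, 25.8% of WT +Dox only (23.5 to 28.2%) and 20.9% of BYK-only sites (20.0 to 21.9%). Peaks of Mut −Dox lay at 50.5, 9.83 and 9.53%, in the same order.

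Sites with no peak in any of those 3 lists made up 4.97% of shared sites, 40.5% of WT +Dox only sites (37.8 to 43.2%) and 42.7% of BYK-only sites (41.6 to 43.8%). Low scores went with absence elsewhere. Within the lowest quartile of WT +Dox scores, Mut +Dox peaks lay at 77.3% of shared sites (75.5 to 79.0%) and at 45.2% of WT +Dox only sites (41.9 to 48.5%). Within the lowest quartile of WT +Dox +BYK scores they lay at 70.2% of shared sites (67.2 to 73.0%) and at 37.3% of BYK-only sites (35.8 to 38.9%). Within these quartiles sites of 1 list were thus found in Mut +Dox less often than shared sites. Ranks inside a quartile were not matched, and shared sites had already been found in both lists, so class and score cannot be separated here.

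**Figure D2:**
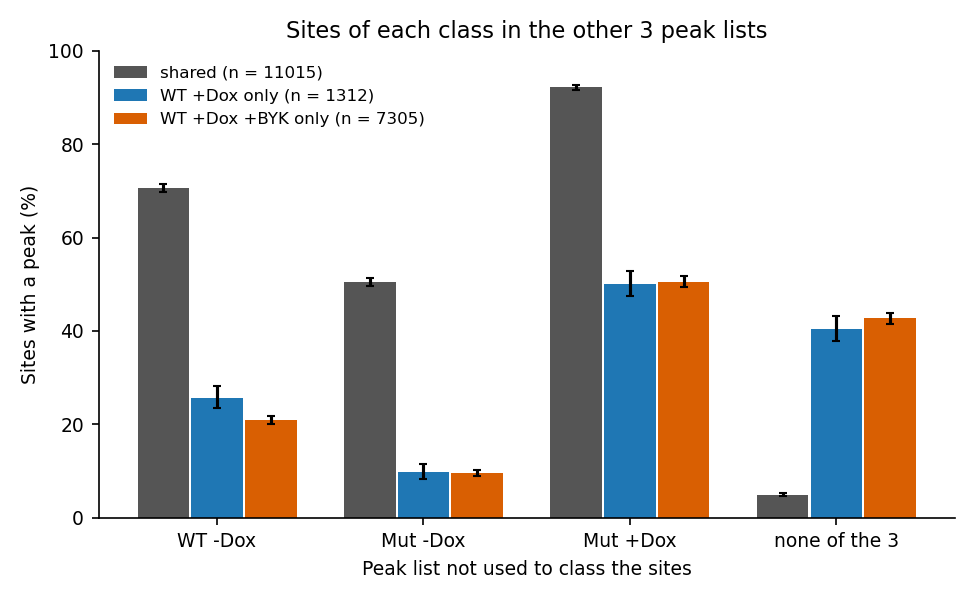
Share of sites (vertical axis, %) with a peak in WT −Dox, Mut −Dox, Mut +Dox or in none of these 3 lists, for shared, WT +Dox only and BYK-only sites; bars are shares with Wilson 95% intervals. In Mut +Dox the shares were 92.2, 50.2 and 50.6%, and the WT +Dox only and BYK-only bars are within each other's intervals.

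WT +Dox only sites lay at gene starts more often than the others. Within 1 kb of a start of a protein-coding gene stood 13.3% of WT +Dox only sites (170 of 1281, 11.5 to 15.2%), 7.54% of shared sites (803 of 10648, 7.05 to 8.06%) and 6.69% of BYK-only sites (472 of 7054, 6.13 to 7.30%). Within 250 bp the shares were 8.35% (6.96 to 10.0%), 4.07% (3.71 to 4.46%) and 2.89% (2.53 to 3.31%). Starts were listed for 17492 of 21887 genes, so sites at other starts are missed. Chromosome 18 is left out of these counts. The same order held in the lowest quartile of WT +Dox scores, with 11.9% of WT +Dox only sites (9.85 to 14.2%) and 6.86% of shared sites (5.86 to 8.02%) within 1 kb. In the third quartile it was 22 of 80 WT +Dox only sites (27.5%, 18.9 to 38.1%) against 7.12% of shared sites. With lists of equal length the WT +Dox only share was 10.7% and the BYK-only share 6.94%.

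Away from gene starts the shares of the classes lay close together. Inside a gene span lay 47.9% of shared, 50.4% of WT +Dox only and 49.2% of BYK-only sites, and over 50 kb from any span lay 20.7, 19.6 and 22.1%. The median distance to a gene start was 47.8 kb for shared, 40.8 kb for WT +Dox only and 49.4 kb for BYK-only sites. A shared site lay within 10 kb of 23.1% of BYK-only sites (22.1 to 24.1%) and of 19.4% of WT +Dox only sites (17.4 to 21.7%).

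Whole promoter windows, 250 bases before to 50 bases after a start, lay inside 551 shared, 111 WT +Dox only and 235 BYK-only sites. They numbered 649, 136 and 271 windows of 585, 126 and 248 genes, out of 21263 windows of 17492 genes in the table. Letters of 12 motifs were searched on both strands. The C/EBP consensus, which includes the palindrome, was in 27.6% of shared (24.3 to 31.1%), 18.4% of WT +Dox only (12.8 to 25.7%) and 24.0% of BYK-only windows (19.3 to 29.4%), against 10.2% of all windows. The hybrid was in 7.70% of shared, 8.09% of WT +Dox only and 4.80% of BYK-only windows, against 0.644% of all windows.

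The CRE was more frequent in WT +Dox only promoters than in the other classes. It was in 16 of 136 WT +Dox only windows (11.8%, 7.37 to 18.3%), in 2.77% of shared windows (1.76 to 4.34%) and in 1.85% of BYK-only windows (0.791 to 4.25%), against 2.23% of all windows. Counted once per site, it was under 11 of 111 WT +Dox only sites (9.91%, 5.62 to 16.9%), 16 of 551 shared sites (2.90%, 1.80 to 4.66%) and 5 of 235 BYK-only sites (2.13%, 0.912 to 4.88%). WT +Dox only windows were rich in CpG, with a median of 22 CpG dinucleotides, against 19 in shared, 18 in BYK-only and 13 in all windows. Among windows with at least 10 CpG the CRE was in 13.2% of WT +Dox only (8.31 to 20.4%), 3.37% of shared, 2.49% of BYK-only and 3.46% of all windows. In the lowest quartile of WT +Dox scores it was in 11 of 81 WT +Dox only windows (13.6%, 7.76 to 22.7%) and 4 of 100 shared windows (4.00%, 1.57 to 9.84%), whose intervals overlap.

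The 13 genes behind these windows were Zfand2b, Larp7, Zgrf1, Pot1a, Med21, Ddx49, Cope, Ddx28, Txnl4b, Elovl5, Trmt61a, 3830406C13Rik and Mettl4. Several of them have general cell functions: Larp7 binds 7SK RNA, Pot1a protects telomeres, Med21 is a Mediator subunit, Cope a coatomer subunit, and Trmt61a and Mettl4 are methyltransferases. Elovl5 elongates polyunsaturated fatty acids. Ddx49 and Cope share 1 site, as do Larp7 and Zgrf1, and the CRE printed above for Cope lies between the divergent starts of Ddx49 and Cope. The scores ran from 50.05 at Ddx28 to 119.32 at Elovl5, and Mut +Dox peaks lay at 5 of the 11 sites.

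The ETS core (CCGGAAG, bound by ETS factors) was in 31.6% of WT +Dox only windows (24.4 to 39.8%), 17.6% of shared (14.8 to 20.7%), 17.0% of BYK-only (13.0 to 21.9%) and 11.6% of all windows. In windows with at least 10 CpG the shares were 34.7, 21.4, 20.4 and 18.4%. The response element of C/EBP with ATF4 (TGATGCAA), searched after the data were seen, was in 26 of 649 shared windows (4.01%, 2.75 to 5.81%) and in 8 of 271 BYK-only windows (2.95%). It was in 0 of 136 WT +Dox only windows, with an upper bound of 2.75%, against 0.865% of all windows. A match to these letters is a description of the sequence and no evidence of a factor's binding, and the CRE contains the short CRE form (TGACGT), which was in 21.3% of WT +Dox only, 15.1% of shared and 12.2% of BYK-only windows.

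**Figure D3:**
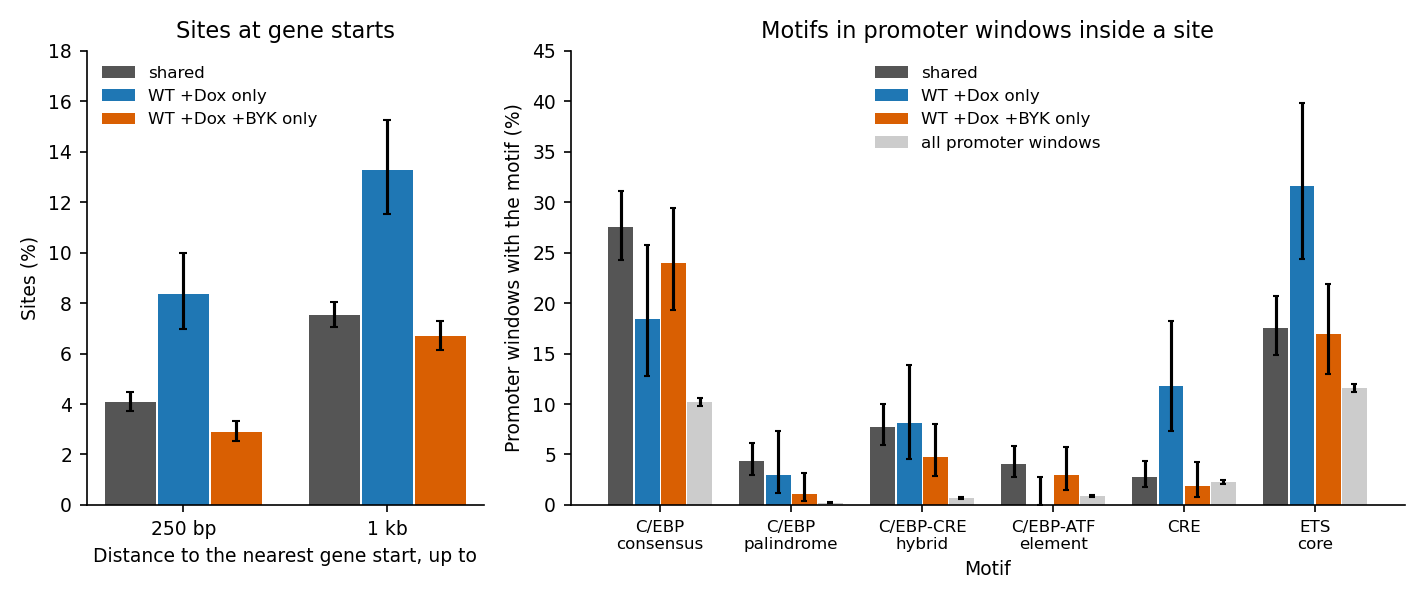
Left, share of sites (%) within 250 bp or 1 kb of a protein-coding gene start by class. Right, share of promoter windows inside a site (%) that hold each motif by class, beside all windows in the table; bars are shares with Wilson 95% intervals. WT +Dox only sites stand highest at gene starts (13.3% within 1 kb), at the CRE (11.8%) and at the ETS core (31.6%).

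The same slant towards gene starts was seen within the shared sites. The 10918 shared sites made of 1 peak per list were ordered by score in each list, and each got a place from 0 (lowest) to 100 (highest). The 428 of them within 250 bp of a gene start had a median place of 59.0 without the inhibitor and 51.0 with it. The median change within a site was -4.03 places. Of these 428 sites 63.1% stood lower with the inhibitor, against 49.8% of all 10918 sites and 48.4% of the 8324 sites over 10 kb from a start. Starting places were not matched: the median without the inhibitor was 59.0 for the 428 sites and 50.0 for all. Of the 539 such sites with a whole promoter window inside, 61.4% stood lower with the inhibitor, from a median place of 57.4 without it. By motif the shares were 70.8% of 96 sites with the ETS core, 68.8% of 16 with the CRE, 62.1% of 161 with the C/EBP consensus and 88.0% of 25 with the C/EBP palindrome. No intervals were taken for these shares. The palindrome sites had median places of 86.2 and 72.0, with a median change within a site of -5.07 places. Starting that high, they had more room to fall than to rise, so their share cannot be read against 61.4%. This ordering was added after the data were seen.

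Among the genes of the groups, 25 had a promoter window inside such a shared site. Of these promoter sites 13 stood lower with the inhibitor and 12 higher, beside 61.4% lower among all 539 promoter sites of this kind. No group is singled out by the genes named here. Over all shared sites of the stress and growth arrest genes, 42.9% of 35 stood lower, and over those of the acute phase and inflammatory genes 47.6% of 84, against 49.8% of all. Of the stress and growth arrest promoters, Asns, Trib3 and Chac1 stood lower and Cdkn1b, a cell cycle inhibitor gene, slightly higher (places 16.8 and 20.5). Asns, the asparagine synthetase gene, scored 125.38 without and 72.75 with the inhibitor (places 58.0 and 10.6). Trib3, a pseudokinase gene, scored 221.43 and 130.21 (places 80.7 and 37.3). Mt1, a metallothionein gene, scored 94.17 and 51.19 (places 41.6 and 0.572), and Fosb 392.49 and 217.91 (places 93.9 and 63.8). The places were 94.7 and 85.8 at Chac1, a glutathione-degrading enzyme gene, and 96.5 and 87.8 at Ddit3, which encodes the bZIP factor CHOP.

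The acute phase and inflammatory promoters went both ways, with Il6, C3 and Lcn2 higher and Ptgs2 (places 76.2 and 63.2) and Saa3 (20.2 and 6.04) lower. Cebpg, a C/EBP family gene, scored 74.08 without and 347.75 with the inhibitor (places 26.3 and 82.3). Il6 scored 92.36 and 259.54 (places 40.5 and 71.2), and C3, the complement gene, 140.77 and 587.89 (places 63.3 and 94.3). The bZIP gene Jdp2 scored 63.86 and 151.18 (places 16.4 and 45.2), and Parp8, a member of the PARP family, 54.82 and 184.60 (places 6.36 and 56.0). At Pparg the places were 93.7 and 99.3, at Per1 90.6 and 90.6, and at Nfil3 98.8 and 95.8. Pdgfra and Tnc stood higher, and Atf3 and Twist2 lower. A place depends on the whole ordering of the list and not on the amount of protein bound.

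Sites were then assigned to every protein-coding gene whose span lay within 50 kb of the site's middle. Of 21887 genes, 12513 had a site in either list. With the inhibitor 6577 of them (52.6%) had more sites and 1105 (8.83%) had fewer, while 4831 had equal numbers. The median difference was 1 site. There were 2378 genes with BYK-only sites alone and 452 with WT +Dox only sites alone. At equal list length 2561 genes had more and 3079 fewer. Lists of equal length hold near-equal numbers of unshared sites by construction, so this count cannot show where the surplus came from. The members of each gene group are read against 52.6 and 8.83%.

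Among regulators of fat cell formation, 18 had a site, of which 12 had more with the inhibitor and 1 fewer. Of their 81 sites 33.3% were BYK-only (24.0 to 44.1%), beside 37.2% of all sites. Pparg had 14 shared, 1 WT +Dox only and 3 BYK-only sites. Its 14 shared sites scored from 62.18 to 922.32 without and from 58.02 to 1343.62 with the inhibitor. The BYK-only sites scored 132.76, 70.64 and 57.89, and the WT +Dox only site 99.63. The direction at Pparg was not stable: at equal list length it had 3 fewer sites with the inhibitor.

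Ebf1, an early B-cell factor that also acts in fat cell precursors, had 8 shared and 5 BYK-only sites, the latter with scores from 65.00 to 164.57. Ebf2 had 2 and 3, and Ppargc1a, a coactivator of mitochondrial genes, 4 and 3. Cebpa had 1 shared site, scored 61.84 without and 217.59 with the inhibitor, and 1 BYK-only site scored 54.23. Cebpb had 1 shared site (64.39 and 64.55) and 1 BYK-only site (71.62). Srebf1, a regulator of lipid synthesis genes, had 1 BYK-only site (52.98) and Stat5b had 2. Cebpd and Klf5 had no site in either list.

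Of 25 fat cell genes of lipid handling and secretion with a site, 13 had more and 3 fewer. Lpl, which encodes lipoprotein lipase, had 5 sites without and 10 with the inhibitor. Its 5 BYK-only sites scored 70.10, 83.57, 97.81, 111.16 and 66.35, and 3 of these lay inside the gene, where no WT +Dox peak stood. Adipoq, the adiponectin gene, had 1 shared site (57.72 and 96.86) and 4 BYK-only sites with scores from 51.10 to 78.67, all in the lower part of the list. Fabp4, a fatty acid carrier gene, had 1 shared site in either list (63.90 and 52.17), which lay inside the neighbouring gene Fabp12. Lpin1 had 1 site of each class.

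The largest counts of BYK-only sites among the genes of the groups stood at Macrod2, Fbn1, Dusp1, Dcn, Il1r1 and Tcf7l2. Dusp1, a phosphatase of MAP kinases and a glucocorticoid target, had 1 site without the inhibitor (70.45, and 174.89 with it) and 6 BYK-only sites scored 73.90, 52.07, 68.42, 73.85, 53.81 and 121.74. They lay from 23.5 kb on one side to 6.43 kb on the other side of its start. Mut +Dox had a peak at 2 of these 6. Among 18 glucocorticoid target genes with a site 11 had more and 0 fewer, and their 69 sites held 46 shared, 23 BYK-only and 0 WT +Dox only sites, the last with an upper bound of 5.27% against 6.68% of all sites. The BYK-only share of 33.3% (23.4 to 45.1%) stood beside 37.2% of all sites. Cry2, a clock repressor gene, had 2 shared and 4 BYK-only sites and Rgs2 2 BYK-only sites alone. At equal list length the surplus with the inhibitor was 1 site at each of Dusp1, Dcn, Adipoq, Ebf1 and Macrod2, 3 sites at Lpl and Il1r1, and 0 at Fbn1, Ccl2, Sparc, Smad7 and Vcam1. With scores of at least 100 in both lists it was 0 at Lpl, Adipoq and Sparc and 1 at Ccl2, Smad7 and Vcam1. It was then 2 at Dusp1, 3 at Dcn, Ebf1 and Il1r1, 4 at Macrod2 and 5 at Fbn1.

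Of 35 fibroblast and matrix genes with a site, 26 (74.3%) had more sites with the inhibitor and 3 (8.57%) fewer. By sites the group did not stand out: 35.2% of its 182 sites were BYK-only (28.6 to 42.3%), beside 37.2% of all sites. Dcn, which encodes the proteoglycan decorin, had 4 shared sites and 6 BYK-only sites, the latter scored 57.56, 72.42, 178.91, 75.39, 52.20 and 143.59. Fbn1, a microfibril gene, had 11 shared, 2 WT +Dox only and 7 BYK-only sites, and Col1a2, a collagen I gene, 4, 1 and 5. Sparc and Postn, matricellular protein genes, had 4 and 3 sites with the inhibitor and 0 without. Mmp14, a membrane-bound metalloproteinase gene, went the other way with 3 WT +Dox only sites and 1 BYK-only site. With scores of at least 100 in both lists it had 1 more with the inhibitor. At that limit a shared site with 1 weaker peak counts in 1 list only.

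Of 31 acute phase and inflammatory genes, all with a site, 17 had more and 1 fewer. Il1r1 had 6 sites without and 12 with the inhibitor, and Csf1, a macrophage growth factor gene, 8 and 12. Ccl2, a chemokine gene, had 4 shared sites, 3 of them with scores of 188.61 or more without the inhibitor, and 5 BYK-only sites scored from 50.90 to 75.06. Ccl7 lies beside Ccl2 and shares these sites. The 4 sites of Il6 were all shared. Vcam1, an adhesion molecule gene, had 3 shared and 4 BYK-only sites. Stat3 had 1 site fewer, a direction that turned at scores of at least 100.

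PARP and NAD genes had more sites with the inhibitor in 15 of 21 cases (71.4%) and fewer in 0. Their 62 sites held 27 BYK-only sites (43.5%, 31.9 to 55.9%), which covers the 37.2% of all sites. Macrod2, a mono-ADP-ribose hydrolase gene with a long span, had 9 shared and 7 BYK-only sites, and Nmnat2, an NAD-forming enzyme gene, 6, 1 WT +Dox only and 5. Parp1 itself had 1 shared site, 10.8 kb from its span (153.81 and 138.90), and 1 BYK-only site 11.7 kb away (104.51). Nampt, which makes the NAD precursor NMN, had 1 shared site (112.21 and 192.66). Parp4, Parp9, Parg, Sirt1 and Adprhl2 had 1 site each with the inhibitor and 0 without.

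AP-1 and other bZIP genes had a smaller surplus of sites with the inhibitor than all genes, in the same direction. Of 27 AP-1 and other bZIP genes with a site, 11 (40.7%) had more and 6 (22.2%) fewer. Of their 80 sites 17 were BYK-only (21.3%, 13.7 to 31.4%) and 11 WT +Dox only (13.8%, 7.85 to 23.0%), beside 37.2 and 6.68% of all sites. The share of genes with more sites was also low for macrophage (38.5%), hepatocyte (37.5%) and skeletal muscle genes (41.7%), but 0 of those had fewer. Their BYK-only shares of sites were 21.2, 38.5 and 58.3%, in the same order. Jun had 2 sites without the inhibitor and 0 with it. Its promoter site (chr4:95051904-95053492) scored 61.79 and also had a peak in Mut +Dox, and the other scored 61.16. Fos had 1 WT +Dox only site 20.5 kb from its span (76.54), and Maff 1 at its start (chr15:79346160-79346907, score 73.44), whose promoter window holds the C/EBP consensus. Mafk and Crem also had 1 site each without the inhibitor and 0 with it.

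Junb had 3 shared and 2 WT +Dox only sites. The WT +Dox only sites scored 64.61 and 100.93 and lay inside the neighbouring genes Rnaseh2a and Hook2, 76 and 51 bp from a gene start. With the nearest gene at any distance in place of the 50 kb window Junb, Jun and Fos had no difference. The Jun and Fos sites above still had Jun and Fos as nearest gene, so sites beyond 50 kb entered that count. With scores of at least 100 Jun, Fos and Maff had no difference, and Junb stayed at -2. The WT +Dox only sites at these genes stood in the lower part or the middle of the list. Their percentiles were 21.5 and 50.8 at Junb, 18.2 and 17.4 at Jun, 33.7 at Fos and 31.0 at Maff. Fosl1 and Fosl2, other AP-1 genes, each had 1 shared, 1 WT +Dox only and 3 BYK-only sites. In a group of 28 immediate early genes added after the data were seen, 22 had a site, 8 had more and 6 fewer (36.4 and 27.3%), and Fos, Fosb, Jun, Junb, Atf3 and Maff are in both groups.

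Cell cycle genes had 6 of 12 with more and 2 with fewer sites. Of their 34 sites 23.5% were BYK-only (12.4 to 40.0%) and 17.6% WT +Dox only (8.35 to 33.5%), shares close to those of the AP-1 group. Cdk6 had 2 shared, 4 WT +Dox only and 2 BYK-only sites, and E2f2 had 2 shared and 2 WT +Dox only sites. Both, and Id3 named next, had 2 more sites with the inhibitor when scores of at least 100 were asked of both lists. Of 24 preadipocyte factors and inhibitors of adipogenesis with a site 12 had more and 4 fewer. Tcf7l2, a Wnt pathway factor, had 4 shared, 1 WT +Dox only and 6 BYK-only sites, Smad7 2, 0 and 4, and Id3 3, 2 and 0. Sox9 had 2 WT +Dox only and 1 BYK-only site.

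Insulin and IGF signalling genes had more sites in 12 of 17 cases and fewer in 0. Of their 64 sites 35.9% were BYK-only (25.3 to 48.2%), beside 37.2% of all sites. Irs2 and Igf2r had 2 sites each with the inhibitor and 0 without, and Igf1r had 4 shared and 3 BYK-only sites. Stress and growth arrest genes had more in 11 of 17 cases and fewer in 0, with Gadd45a at 5 shared and 4 BYK-only sites. Clock genes had more in 7 of 15 and fewer in 0, with Nr1d1 at 3 and 3 and Arntl (BMAL1) at 2 and 3.

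Genes known from other cell types were counted in the same way. A site was found at 8 of 20 hepatocyte, 13 of 20 macrophage, 10 of 20 neuronal and 12 of 20 skeletal muscle genes, with more sites with the inhibitor at 3, 5, 8 and 5 of them and fewer at 0. Alb, Adgre1, Rbfox3 and Myod1 had no site. Peaks cannot show whether a gene is expressed, so the identity of the cells was not tested. The 80.0% of neuronal genes with more sites was the highest share of any group.

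**Figure D4:**
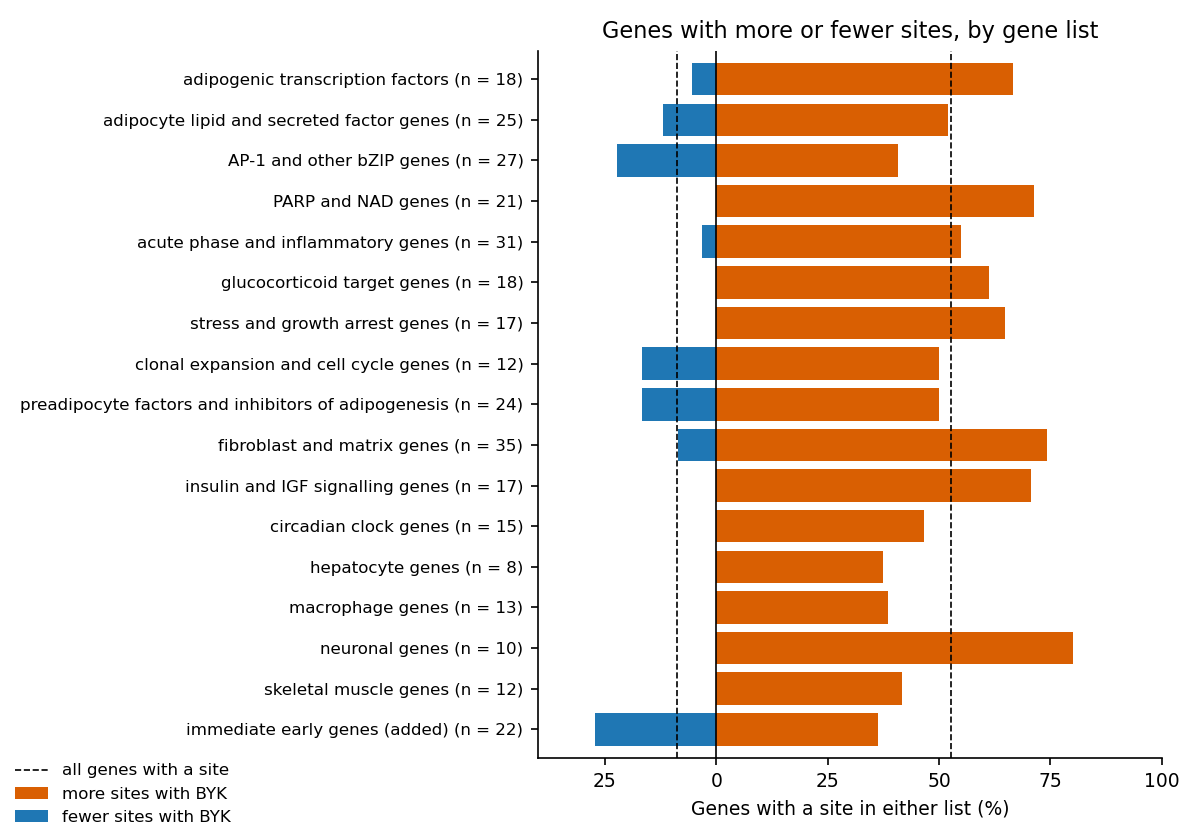
Share of the genes with a site in either list (horizontal axis, %) that had more sites with BYK (to the right) or fewer (to the left), for each gene group, with the number of genes with a site in brackets. Dashed lines mark all genes (52.6% more and 8.83% fewer). AP-1 and other bZIP genes stand at 40.7 and 22.2%, cell cycle genes at 50.0 and 16.7%, and macrophage genes at 38.5 and 0%.

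Some genes had several sites in one list and none in the other. Marcks, a substrate of protein kinase C, had 6 sites with the inhibitor and 0 without, scored from 55.15 to 86.78. Adamts9, a gene of the ADAMTS metalloproteinase family, had 5, scored from 50.81 to 223.71. Dennd2a, Amotl1, Lin7c and Ltbp3, a latent TGFβ binding protein gene, had 5 each, and Tada2a 4. Agpat1, Egfl8 and Prrt1 are neighbours that share 4 sites, of which the highest scored 265.01. In the other direction the counts were lower: Sf1, a splicing factor gene, had 3 sites without the inhibitor and 0 with it, scored from 52.95 to 134.14, and Gm7592 3. Pygm and Rasgrp2 share 2 of the Sf1 sites, Glis2, Pam16 and Vasn share 2, Ckb and Trmt61a share 2, and Ppp2cb had 2.

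Promoter windows of the group genes lay inside sites of 1 list in 9 cases. Jun, E2f2, Cdk6 and Maff had theirs inside WT +Dox only sites, with scores of 61.79, 56.38, 59.67 and 73.44. Il1r1, Per3, Gadd45b, Klf6 and Gadd45g had theirs inside BYK-only sites, with scores of 106.62, 104.94, 74.11, 61.25 and 96.76. Mut +Dox peaks lay at Jun and Maff of the first set and at Il1r1 and Gadd45b of the second. Klf6, a zinc finger factor gene, kept 3 shared sites beside its BYK-only promoter site.

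**Figure D5:**
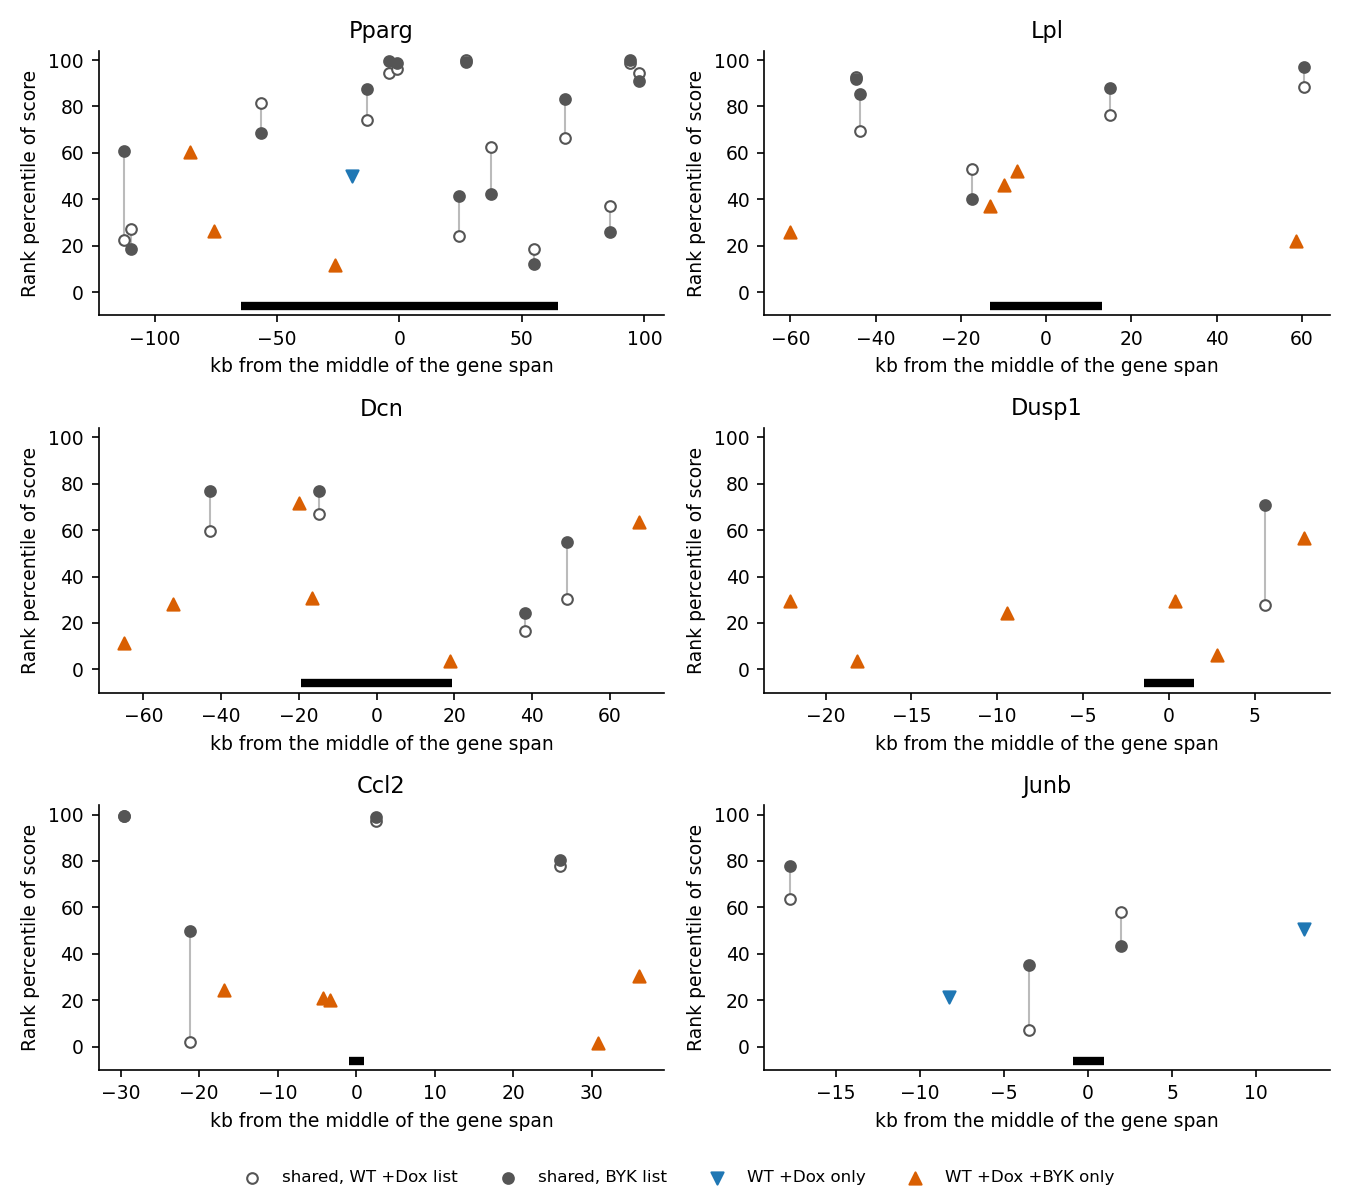
Sites within 50 kb of Pparg, Lpl, Dcn, Dusp1, Ccl2 and Junb by their distance from the middle of the gene span (horizontal axis, kb, rising with the chromosome coordinate) and their rank percentile by score within their own list (vertical axis). Open and filled circles joined by a line are the WT +Dox and WT +Dox +BYK values of a shared site, triangles are sites of 1 list and black bars gene spans; the lists differ in length, so a gap between circles is no change in binding. BYK-only sites number 6 at Dusp1, 6 at Dcn, 5 at Lpl and 5 at Ccl2, and Junb has 2 WT +Dox only sites.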

How the data were processed

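The ChIP-seq peak lists of C/EBPβ were used as deposited, with 1 list per condition in mm10 coordinates. Reads were handled with Bowtie and bedtools, per the submitters' processing notes, and each peak name starts with MACS in the files. The sources used here do not give versions, caller settings, the use of input or how replicate libraries were joined. The deposited score of each peak is the authors' value, on a scale that is not stated, so it only ranked peaks within a list.

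Peaks of the 2 lists were merged where they overlapped by at least 1 bp. Genes were RefSeq protein-coding spans of GRCm38.p6, with a window of 50 kb. Gene starts and promoter sequences covered 17492 of the 21887 genes and none on chromosome 18. Motifs were searched on both strands. The palindrome is a case of the C/EBP consensus, which is a case of the loose form TTNCNNAA. The named genes were a panel of fat cell, AP-1, PARP and inflammatory genes, the genes nearest to the 15 highest-scoring sites of each class, the members of each group with the most sites of 1 list, the genes with the most sites in 1 list and none in the other, and group genes with a promoter window inside a site. Other genes were named after their values were seen. The members, gene groups and alternatives were chosen with earlier results of these data known. The C/EBP-ATF element, the short CRE form, the immediate early group, the splits by score quartile and CpG number, the places of shared sites and the printed sequences were added after values were seen. The work used pandas 2.3.3 and numpy 2.4.6 under Python 3.11.15, with intervals from scipy 1.17.1 and plots from matplotlib 3.10.9. The functions for merging, assignment, motifs and intervals were tested on simulated data.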

Additional observations from a re-analysis of the deposited data

How the results depend on the processing

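Asking for 50% overlap, widening peaks by 250 bp or keeping peaks of 500 bp or more moved no count of sites past 1.5 times. With lists of equal length there were 2760 BYK-only and 2733 WT +Dox only sites (ratio 1.01), 77.8% of WT +Dox sites were found with BYK, 2561 genes had more and 3079 fewer sites, 10.7% of WT +Dox only sites lay within 1 kb of a gene start, and the difference at Pparg was -3; these follow from the shorter list by construction. Scores are not comparable between lists, so score limits cut each at a different depth. Peaks under a limit were dropped from both lists before merging, so a shared site with 1 weaker peak then counts in 1 list only. The WT −Dox and Mut +Dox lists were not cut. With scores of at least 75 there were 715 WT +Dox only sites, a ratio of 7.18, 91.4% of WT +Dox sites found with BYK and the ETS core in 11.0% of BYK-only windows. With scores of at least 100 there were 3955 BYK-only and 435 WT +Dox only sites, a ratio of 9.09, 92.9% of WT +Dox sites found with BYK and 504 genes with fewer sites. At that limit WT −Dox peaks lay at 88.7% of shared, 57.2% of WT +Dox only and 53.6% of BYK-only sites, and Mut +Dox peaks at 99.3, 86.9 and 87.7%. The differences there were 2 at Cdk6, 2 at E2f2, 2 at Id3, 1 at Mmp14 and 1 at Stat3, and the cause was not tested. Of 32 named genes followed at that limit, 18 of 22 with more sites and 2 of 10 with fewer kept their direction. Counted by covered bases, 90.9% of WT +Dox was found with BYK. Genes with more and fewer sites numbered 3552 and 640 within 10 kb, and 3812 and 547 by the nearest gene. In the lowest quartile of WT +Dox scores 6.86% of shared sites lay within 1 kb of a start and 13.0% of shared windows held the ETS core, against 21.4% among windows with at least 10 CpG. WT +Dox only windows held the CRE most often in each alternative, in 9.34 to 13.6% of windows, while the order of shared and BYK-only windows turned at scores of at least 75. No paired analysis was possible because each condition has 1 peak list without values per replicate, and for the same reason no replicate could be left out. Depth is unknown, so for a weak site in 1 list absent binding and too few reads cannot be told apart.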

Other observations

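Hairpins of miRNAs lay wholly inside 6 shared, 2 WT +Dox only and 5 BYK-only sites. The 3 hairpins of the miR-199 family, known from mesenchymal cells, fell into 3 different classes. The site over Mir199a-2 on chromosome 1 was found without the inhibitor alone (score 70.32), that over Mir199a-1 on chromosome 9 with it alone (83.04), and that over Mir199b on chromosome 2 in both lists (70.98 without and 95.41 with it). Mir199a-1 and Mir199a-2 give the same mature miRNAs, and Mir199b gives a 3p strand of identical letters, printed from RefSeq with the seed (bases 2 to 8) in capitals.
mmu-miR-199a-5p: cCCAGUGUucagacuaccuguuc
mmu-miR-199a-3p: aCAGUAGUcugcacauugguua
mmu-miR-199b-3p: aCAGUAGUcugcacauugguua
All of these scores lay in the lower part of the lists, and Gm23363 lies in the same site as Mir199b.

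Among the shared sites, some with wide moves in place are given as a description, chosen by value. The site beside Apoc1, an apolipoprotein gene, scored 57.09 without and 368.65 with the inhibitor. In the other direction stood a site inside Nfkbiz, an atypical IκB gene, with 324.78 and 84.90. Several of the 15 sites that stood most lower with the inhibitor lay at gene starts: 159 bp from the start of Bcat1, which breaks down branched-chain amino acids (186.87 and 61.30), 126 bp from that of Rheb, an activator of mTORC1 (227.22 and 85.15), and 33 bp from that of Xrcc6, which encodes Ku70 (221.14 and 88.95). Of the 15 that stood most higher, the nearest listed gene start was 4697 bp away, at Apoc1, and not every gene has a listed start.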
